A study of Mus musculus with 9 samples.

Results

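Collagen and laminin genes were examined for 8 histone marks in mouse lung endothelial cells. The genes were taken by name from the RefSeq annotation of GRCm38.p6: every protein-coding gene whose symbol is that of a collagen chain (Col, a type number, a, a chain number) or of a laminin alpha, beta or gamma chain (Lama, Lamb, Lamc and a chain number). The rule gave 55 genes of 21887 protein-coding genes, 44 of them collagens and 11 laminins. The rule itself used no measured value, but the genes were chosen with earlier results of these data known. The cells came from wild-type mice and carried no treatment or allele that the labels name. Their age and sex, and whether animals were pooled, are not stated in the sources at hand. Nuclei were permeabilised and bound with an antibody to H3K4me3, H3K9ac, H3K27ac, H3K18ac, H3K14ac, H3K23ac, H4K8ac or H2AK5ac, or with IgG as the background control. A Protein A/G-Tn5 transposase complex then cut and tagged the DNA beside the bound antibody, and the fragments were read as pairs (ACT-seq). Each antibody had 1 library. With no replicates there is no spread between libraries, so no test was run, and every difference given here describes these libraries.

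Basement membranes are thin sheets of matrix under endothelium and epithelium. Their frame is a network of collagen IV, each molecule a triple helix of 3 alpha chains, joined to a network of laminins, each a cross of 1 alpha, 1 beta and 1 gamma chain. Endothelial cells are known to make the collagen IV chains of Col4a1 and Col4a2, the laminin chains of Lama4, Lama5, Lamb1, Lamb2 and Lamc1, and the multiplexins of Col15a1 and Col18a1, whereas the fibrillar collagens I, III and V of the lung are known chiefly as products of fibroblasts. H3K4me3 is known as a mark of active gene starts, and the 7 acetylated lysines as marks of active starts and enhancers.

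The deposited table held 1309635 peak regions under 578465 identifiers, and total reads ran from 365999 for IgG and 1477463 for H3K4me3 to 10044130 for H3K14ac. The identifiers appear to be shared by position number among 8 peak lists of between 48943 (H3K9ac) and 578465 (H3K14ac) regions, so a count belongs to a place only where an identifier holds 1 region. The lists were therefore compared by the places of their peaks, and reads were used only at regions with an identifier of their own. Lists of known marker genes were checked against the labelled cell type in the same windows (gene span plus 2 kb on either side). Of 10 endothelial markers, 8 had peaks of all 8 marks, beside 44.6% of all genes. Among the other cell types this was so for 1 of 8 fibroblast and mesenchyme markers, 2 of 8 pericyte and smooth muscle markers, 1 of 8 lung epithelial markers, 0 of 4 mesothelial markers and 2 of 8 leukocyte markers. These lists differ in length, with a median span of 44.57 kb for endothelium, 7.37 kb for epithelium and 6.13 kb for mesothelium. The endothelial junction gene Cldn5 had a peak of 0 marks in its window, as did the fibroblast factor Tcf21. Here and below, 0 says only that the table as used here holds no such region in the window; whether it lists every region there is not known. The epithelial marker with all 8 marks was Sftpc, which encodes a surfactant protein. The part of other cell types in the values below was not tested.

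Sequences are shown for 6 gene starts that carry the contrast described below. Col4a1 and Col4a2 share a start region, Lamb1 and Col18a1 are basement membrane genes with all 8 marks near the start, and Col3a1 and Col1a2 are fibrillar genes with no H3K4me3 peak. Each run holds 250 bases before and 50 after the RefSeq start (GRCm38.p6), 5′ to 3′ on the gene's strand (for Col18a1, the listed start nearest the 5′ end). Capitals mark the GC box (GGGCGG or, on the other strand, CCGCCC), the CCAAT box (CCAAT or ATTGG) and the TATA box (TATAAA or TTTATA), and a base can belong to more than 1 match. A match describes letters and is not a measured binding site.
Col4a1, chr8:11312777-11313076, minus strand: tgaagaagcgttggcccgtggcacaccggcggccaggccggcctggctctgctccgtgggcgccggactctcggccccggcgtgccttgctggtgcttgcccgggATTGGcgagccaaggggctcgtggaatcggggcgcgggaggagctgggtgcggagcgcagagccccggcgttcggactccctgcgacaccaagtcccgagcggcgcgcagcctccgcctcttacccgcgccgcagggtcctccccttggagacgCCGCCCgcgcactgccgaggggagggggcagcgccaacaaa
Col4a2, chr8:11312555-11312854, plus strand: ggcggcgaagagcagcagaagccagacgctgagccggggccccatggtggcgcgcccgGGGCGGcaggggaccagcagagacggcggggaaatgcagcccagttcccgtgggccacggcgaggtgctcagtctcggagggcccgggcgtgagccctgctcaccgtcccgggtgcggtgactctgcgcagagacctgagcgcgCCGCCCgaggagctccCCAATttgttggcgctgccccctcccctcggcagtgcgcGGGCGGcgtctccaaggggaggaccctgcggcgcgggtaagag
Lamb1, chr12:31265043-31265342, plus strand: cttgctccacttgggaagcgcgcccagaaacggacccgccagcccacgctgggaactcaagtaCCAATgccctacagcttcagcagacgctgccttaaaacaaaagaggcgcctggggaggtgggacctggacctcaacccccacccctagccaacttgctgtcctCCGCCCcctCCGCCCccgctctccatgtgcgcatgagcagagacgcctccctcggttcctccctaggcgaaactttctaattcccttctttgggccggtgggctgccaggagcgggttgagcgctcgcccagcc
Col18a1, chr10:77166481-77166780, minus strand: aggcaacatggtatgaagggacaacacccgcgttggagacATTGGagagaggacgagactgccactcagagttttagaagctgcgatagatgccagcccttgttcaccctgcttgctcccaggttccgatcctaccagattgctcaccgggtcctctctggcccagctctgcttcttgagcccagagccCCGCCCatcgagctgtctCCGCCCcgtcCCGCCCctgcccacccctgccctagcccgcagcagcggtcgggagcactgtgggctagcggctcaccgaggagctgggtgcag
Col3a1, chr1:45311288-45311587, plus strand: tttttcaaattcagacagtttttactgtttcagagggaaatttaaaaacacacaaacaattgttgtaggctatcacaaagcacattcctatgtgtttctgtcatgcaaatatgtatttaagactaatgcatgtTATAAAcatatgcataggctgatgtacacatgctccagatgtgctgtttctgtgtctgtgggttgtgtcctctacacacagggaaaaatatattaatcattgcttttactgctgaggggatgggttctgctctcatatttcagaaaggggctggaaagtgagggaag
Col1a2, chr6:4505368-4505667, plus strand: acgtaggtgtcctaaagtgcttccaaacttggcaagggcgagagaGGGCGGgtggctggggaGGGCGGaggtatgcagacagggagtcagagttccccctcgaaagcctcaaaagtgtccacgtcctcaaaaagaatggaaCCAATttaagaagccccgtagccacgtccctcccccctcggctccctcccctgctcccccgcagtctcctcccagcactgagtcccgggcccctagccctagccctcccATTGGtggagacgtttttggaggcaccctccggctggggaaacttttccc

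The Col4a1 and Col4a2 starts, for the chains of the commonest collagen IV, lie head to head with their start sites 21 bases apart, and the printed windows share 78 bases. In the Col4a1 window, peaks of H3K4me3, H3K9ac, H3K18ac, H3K14ac and H3K23ac covered all 300 bases, H3K27ac 187, H4K8ac 115 and H2AK5ac 0. In the Col4a2 window the same 5 marks and H3K27ac covered all 300 bases, H4K8ac 207 and H2AK5ac 0. At Lamb1, H3K4me3 covered 300 bases, H3K23ac 203, H3K27ac 135, H3K14ac 132 and H3K18ac 20, while H3K9ac, H4K8ac and H2AK5ac covered 0. At Col18a1 all 8 marks were present on the window, from 121 bases of H3K23ac to 265 of H3K9ac. At Col3a1 a 104-base peak of H3K18ac was the one peak on the window, and at Col1a2 no mark had any. The 4 basement membrane starts carried peaks of 5 to 8 marks on these 300 bases, and the 2 fibrillar starts 1 and 0. The 6 were picked to show this contrast, and other starts did not follow it. Within 2 kb of its start the fibrillar gene Col5a1 had 6 marks, with 34 CpG in its promoter, and the vascular gene Col15a1 had 1, with 8 CpG. Lamb2 had 6 marks at its start, with 4 CpG and no GC or CCAAT box.

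The 6 starts also differed in base composition. CpG dinucleotides numbered 37 at Col4a1, 33 at Col4a2, 18 at Lamb1, 16 at Col18a1, 13 at Col1a2 and 0 at Col3a1. Col3a1 had a TATA box and no GC or CCAAT box, whereas the other 5 each had at least 1 GC box and 1 CCAAT box and no TATA box. Promoter entries were found for 40 of the 55 genes. Those without one included Col5a2, Col4a3, Lamc1, Lamc3, Col9a3, Col26a1, Col12a1, Lama4, Col1a1, Col14a1, Col22a1, Col2a1, Lama1 and Lama3. Over the 40, the median ratio of observed to expected CpG was 0.456, against 0.577 over 17492 protein-coding genes. It was 0.587 in the 21 with an H3K4me3 peak within 2 kb of the start and 0.337 in the 19 without, and 0.767 and 0.196 in the same classes of all genes. A GC box stood in 25 of 40 (46.3% of all genes' promoters), a CCAAT box in 13 of 40 (39.2%) and a TATA box in 5 of 40 (13.3%). The 5 with a TATA box were Col3a1, Col10a1, Col11a2, Col13a1 and Col17a1.

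Peaks were then counted in each gene's span with 2 kb on either side. H3K14ac peaks lay in 55 of 55 genes (89.8% of all protein-coding genes), H3K18ac in 51 (77.3%), H4K8ac in 49 (75.4%), H3K4me3 in 47 (69.6%), H3K23ac in 47 (69.7%), H3K27ac in 46 (71.6%), H2AK5ac in 46 (55.2%) and H3K9ac in 38 (59.2%). Peaks of all 8 marks lay in 33 of 55, or 60% (44.6% of all genes). With only peaks wider than their list's commonest width 16 genes had all 8 (18.6% of all genes), and with the lists separated by genome order alone 21 (22.5%). Collagen and laminin genes are long: the median span was 113.9 kb, against 17.17 kb for all genes. Of the 28 at or above that median, 24 had all 8 marks, beside 74.2% of the 2049 protein-coding genes that are as long. The share with all 8 marks was thus higher among long genes in general.

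Within 2 kb of the gene start the counts were lower. H3K14ac peaks lay there in 45 of 55 genes (79.8% of all genes), H3K18ac in 38 (65.4%), H3K27ac in 33 (61.4%), H3K4me3 in 30 (60.8%), H4K8ac in 28 (64.2%), H3K23ac in 26 (55.2%), H2AK5ac in 17 (36.4%) and H3K9ac in 16 (49.5%). All 8 marks lay at the start of 9 genes, or 16.4% (29.4% of all genes), and of 6 of the 28 long ones (29.8% of genes as long). The 9 were Col4a1, Col4a2, Col18a1, Lamb1, Lamc1, Lama1, Lamc3, Col16a1 and Col23a1. Where no start site was listed, both ends of the gene were taken, which gives those 15 genes a window of double width. The share of collagen and laminin genes with a peak was thus above that of all genes over the whole window for each of the 8 marks, and below it at the start for every mark but H3K18ac and H3K14ac.

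**Figure D1:**
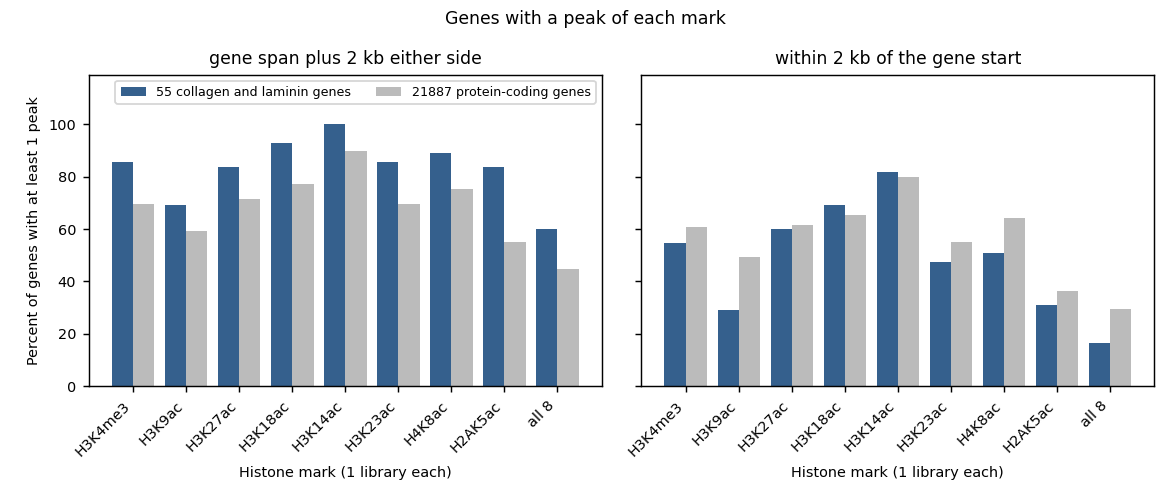
Percent of the 55 collagen and laminin genes (blue) and of 21887 protein-coding genes (grey) with at least 1 peak of each mark, in the gene span plus 2 kb (left) and within 2 kb of the start (right), with the share holding all 8 marks at the right of each panel. The blue bar for all 8 marks stands at 60% on the left and 16.4% on the right, and the grey bar at 44.6% and 29.4%.

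Coverage did not follow these counts for every mark. In the 40 genes with a listed start, H3K4me3 peaks covered 10.1% of the bases within 2 kb of a start, against 14.5% in 17492 protein-coding genes, and 0.393% of the remaining bases, against 0.563%. For H3K9ac the start was covered at 4.48% against 9.05%, and the rest at 0.615% against 0.556%. For H3K27ac the start was covered at 4.77% against 8.67%, and the rest at 1.17% against 1.18%. Over the rest, H3K23ac (0.989% against 1.02%) and H4K8ac (1.38% against 1.51%) were also below all genes. H3K14ac covered 9.72% of the start bases against 9.71%, and 4.56% of the rest against 3.70%. Starts took up 3.21% of the windows of these 40 genes and 8.64% of the windows of all genes. The 7 vascular basement membrane genes among the 40 stood above both: H3K4me3 covered 25.3% of their start bases, H3K9ac 17.6% and H3K23ac 16.2%, and over the rest of the window H4K8ac covered 5.88%, H3K18ac 4.85% and H3K27ac 3.90%. Their coverage exceeded that of all genes at the start for 7 marks, with H4K8ac at 8.68% against 8.81%, and over the rest of the window for all 8. The Col4a1 and Col4a2 starts lie 21 bases apart, so nearly the same start bases were counted for both genes. For H3K9ac, the peak over this shared start made up most of the 5642 covered bases at the starts of the 7 genes. The start values therefore do not describe 7 separate places, and values without this pair are not given here.

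**Figure D2:**
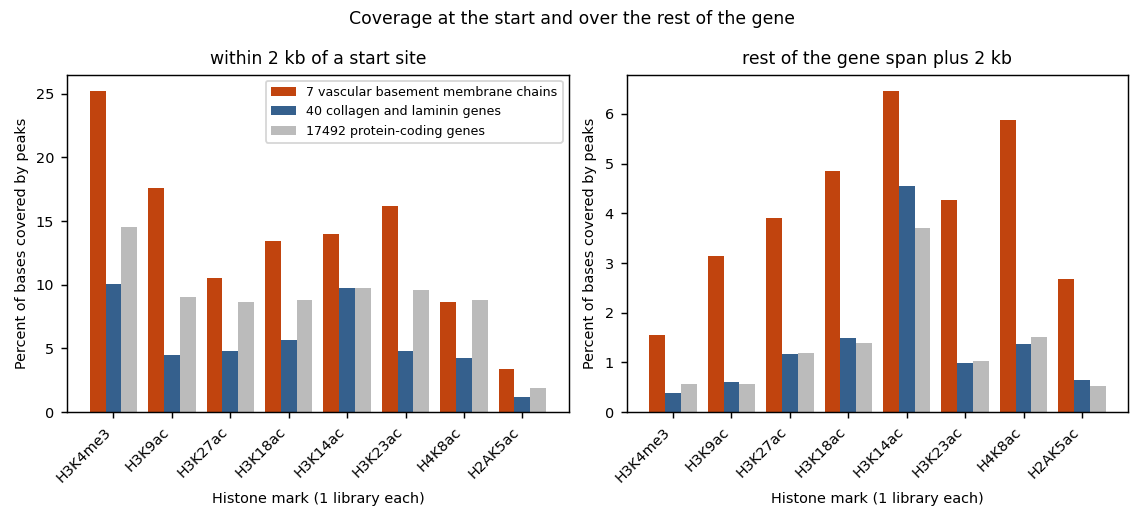
Percent of bases covered by peaks of each mark within 2 kb of a listed start site (left) and over the rest of the gene span plus 2 kb (right), for 7 vascular basement membrane chains (orange), 40 collagen and laminin genes (blue) and 17492 protein-coding genes (grey); the axes differ in scale. The orange bar for H3K4me3 stands at 25.3% at the start, above the blue bar at 10.1% and the grey bar at 14.5%. The shared start of Col4a1 and Col4a2 is counted for each gene.

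The vascular basement membrane genes held most of the merged regions with peaks of all 8 marks. Peaks of any mark that shared at least 1 base were merged, and a merged region with peaks of all 8 marks was found in 15 of 55 genes (30.7% of all genes). Peaks were joined in chains, so the marks of a region need not all share a base. Of the 9 vascular basement membrane chains (Col4a1, Col4a2, Lama4, Lama5, Lamb1, Lamb2, Lamc1, Col15a1 and Col18a1), 8 had all 8 marks, 5 had all 8 at the start and 7 had such a region. Among the other 46 genes, 25 had all 8 marks, 4 at the start, and 8 had such a region. Over all genes, 44.6% had all 8 marks and 29.4% had all 8 at the start. Of genes of 113.9 kb or more, 74.2% and 29.8% did. The median span was 113.9 kb for the 9 chains and 113.7 kb for the 46 genes. The 9 chains held 21 of the 30 regions, with the region at the shared Col4a1 and Col4a2 start counted for each gene. Col4a2 had 7 of the 21 and Col4a1 had 4, while Lama5 and Col15a1 had 0. Over all 21887 protein-coding genes, counted in the same way, there were 9706 such regions. The list of 9 was chosen with earlier results of these data known.

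Col4a1 had 13 peaks of H3K4me3, 22 of H3K9ac, 22 of H3K27ac, 37 of H3K18ac, 39 of H3K14ac, 37 of H3K23ac, 51 of H4K8ac and 20 of H2AK5ac. These covered 3.21% of its window for H3K4me3, 6.31% for H3K9ac, 4.91% for H3K27ac, 6.83% for H3K18ac, 7.21% for H3K14ac, 8.86% for H3K23ac, 7.74% for H4K8ac and 2.73% for H2AK5ac. Col4a2 had 17, 24, 33, 43, 55, 39, 67 and 32 peaks in the same order of marks. Its coverage was 3.42% for H3K4me3, 6.05% for H3K9ac, 5.92% for H3K27ac, 6.88% for H3K18ac, 7.77% for H3K14ac, 7.75% for H3K23ac, 8.34% for H4K8ac and 3.96% for H2AK5ac. Both genes were high for each mark, and the H3K23ac coverage of Col4a1 was the highest of the 55. Within 2 kb of the shared start H4K8ac covered 327 bases, and H3K9ac, of lower coverage over both genes, covered 2088.

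The region of all 8 marks over the shared start spanned 2187 bases at chr8:11312078-11314264, though its H2AK5ac peak shared no base with its H4K8ac peaks. Its H3K9ac peak was 2088 bases wide and its widest H3K4me3 peak 1317. Inside Col4a1 there were 3 further regions of all 8 marks, 33.4, 50.5 and 52.7 kb from the start, and inside Col4a2 there were 6, from 10.2 to 87.6 kb from the start. The pair thus held such places deep in both gene bodies. Of all other collagen and laminin genes, Lamc1 had the most, with 4.

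The other 4 collagen IV genes, whose chains form networks limited to fewer tissues, also lie in head-to-head pairs. Col4a3 had all 8 marks and Col4a4 had 6, with 0 H3K9ac and H2AK5ac peaks. Col4a5 and Col4a6, on the X chromosome, had all 8. Their coverage was lower than that of the Col4a1 and Col4a2 pair for every mark: H3K27ac covered 1.18% of Col4a3, 0.494% of Col4a4, 0.361% of Col4a5 and 0.376% of Col4a6. At the start, H3K4me3 covered 784 bases at Col4a5, 483 at Col4a6 and 0 at Col4a3 and Col4a4, beside 1807 at Col4a1 and Col4a2. None of the 4 had a region of all 8 marks.

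**Figure D3:**
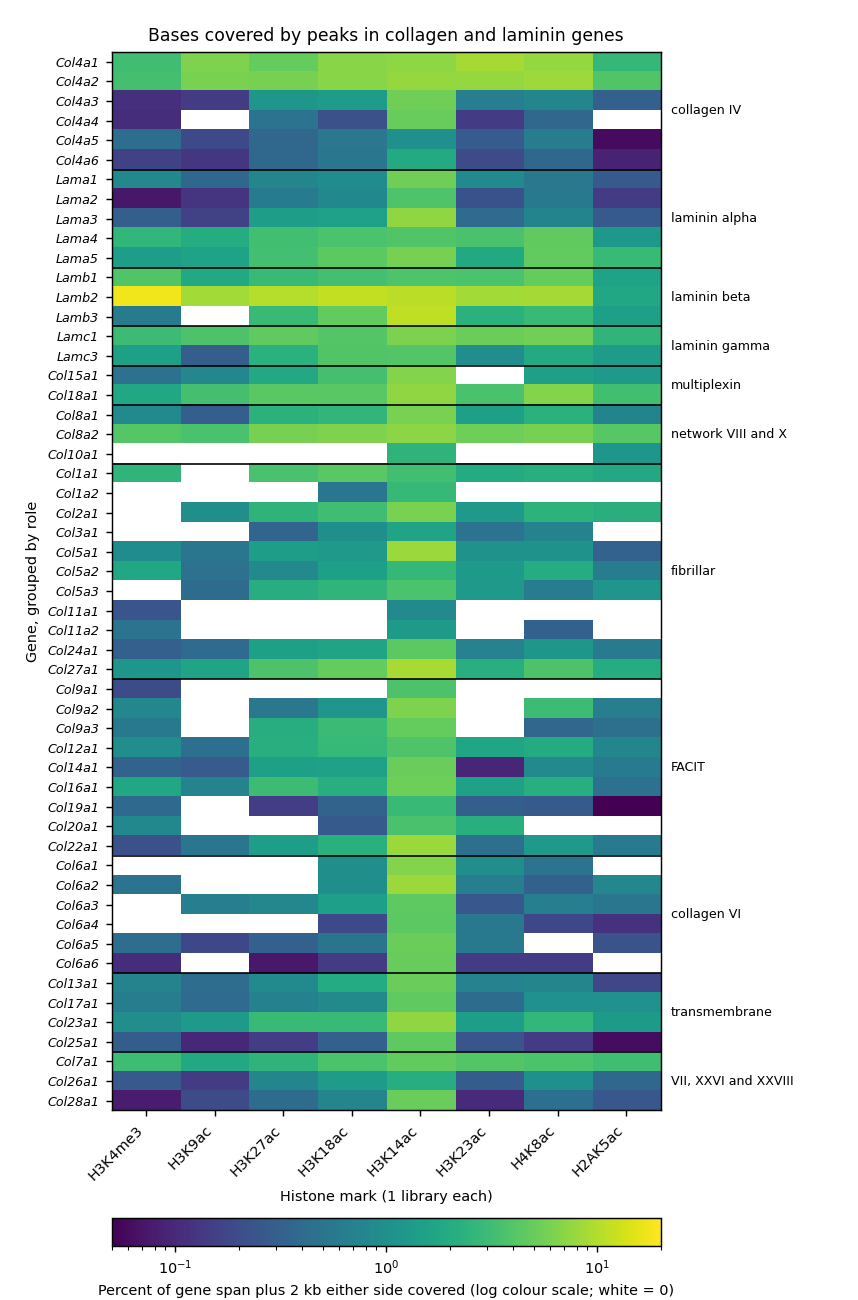
Percent of the gene span plus 2 kb covered by peaks of each mark (columns, 1 library each) in the collagen and laminin genes reported singly (rows, grouped by role), on a log colour scale with white for 0. Col4a1, Col4a2 and Lamb2 are bright in most columns, whereas white cells gather in Col1a2, Col3a1, Col9a1, Col10a1, Col11a1, Col11a2 and the collagen VI genes.

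The laminin alpha chain genes all had all 8 marks, 5 of 5, with a median span of 144.7 kb. This was so for 44.6% of all genes and for 74.2% of those of 113.9 kb or more. Lama4, for an alpha chain of endothelial laminin, was covered at 2.65% by H3K4me3, 2.02% by H3K9ac, 3.29% by H3K27ac, 3.63% by H3K18ac, 3.92% by H3K14ac, 3.58% by H3K23ac, 4.63% by H4K8ac and 1.23% by H2AK5ac. Its peaks lay mainly in the lower part of the gene span, with 1779 bases of H3K4me3 at the gene ends and 2 regions of all 8 marks in that part. Lama5, for another alpha chain of vessel laminin, was covered at 1.44% by H3K4me3, 1.58% by H3K9ac, 3.32% by H3K27ac, 4.47% by H3K18ac, 5.91% by H3K14ac, 1.92% by H3K23ac, 4.78% by H4K8ac and 2.91% by H2AK5ac. It had 7 marks at the start, with H3K9ac at 0 bases, and 0 regions of all 8. The embryonic chain gene Lama1, the muscle and nerve chain gene Lama2 and the epithelial chain gene Lama3 had H3K27ac over 0.780%, 0.601% and 1.41% of their windows, below Lama4 and Lama5. Lama1 and Lama3 each had 1 region of all 8 marks and Lama2 had 0.

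Of the laminin beta chain genes, Lamb1 was covered at 3.91% by H3K4me3, 1.92% by H3K9ac, 2.80% by H3K27ac, 3.31% by H3K18ac, 3.83% by H3K14ac, 3.66% by H3K23ac, 4.89% by H4K8ac and 1.61% by H2AK5ac. It had 2 regions of all 8 marks, 0.384 and 6.27 kb from the start, and the wider, at 1628 bases, lay over the start at chr12:31264864-31266491. Lamb2, for a beta chain known from the glomerulus and the nerve-muscle synapse and also made by endothelium, had the highest coverage of the 55 genes for H3K4me3 (17.5%), H3K9ac (8.64%), H3K27ac (10.3%), H3K18ac (11.6%) and H4K8ac (9.02%). Its span is only 10.68 kb, and its region of all 8 marks lay at the far end, 11.3 kb from its start and within 2 kb of Usp19. In the 73.3% of its window farther than 2 kb from other genes it had 6 marks, with H3K9ac and H2AK5ac at 0. Lamb3, a chain of epithelial anchoring laminin, had 7 marks, with H3K9ac at 0, and the highest H3K14ac coverage of the 55 at 11.2%.

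Of the laminin gamma chain genes, Lamc1, for the gamma chain of most laminins, had all 8 marks. It was covered at 3.04% by H3K4me3, 3.74% by H3K9ac, 4.61% by H3K27ac, 4.04% by H3K18ac, 6.15% by H3K14ac, 5.15% by H3K23ac, 5.62% by H4K8ac and 2.52% by H2AK5ac. It had 4 regions of all 8 marks, the widest 2559 bases long at its upper end, chr1:153331528-153334086. Lamc3 also had all 8 marks, with 0 such regions and H3K27ac coverage of 2.29%. Together 10 of 11 laminin genes and 23 of 44 collagen genes had all 8 marks, or 90.9% and 52.3%, beside 44.6% of all genes. At the start 4 laminin and 5 collagen genes had all 8, or 36.4% and 11.4%, beside 29.4%. The laminins among these include Lamc1, Lama1 and Lamc3, which have no listed start, so both gene ends were taken. The 5 collagens all have a listed start, so the windows behind these shares are unequal. The median span was 64.5 kb for laminins and 114.4 kb for collagens, and 74.2% of genes of 113.9 kb or more had all 8 marks.

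**Figure D4:**
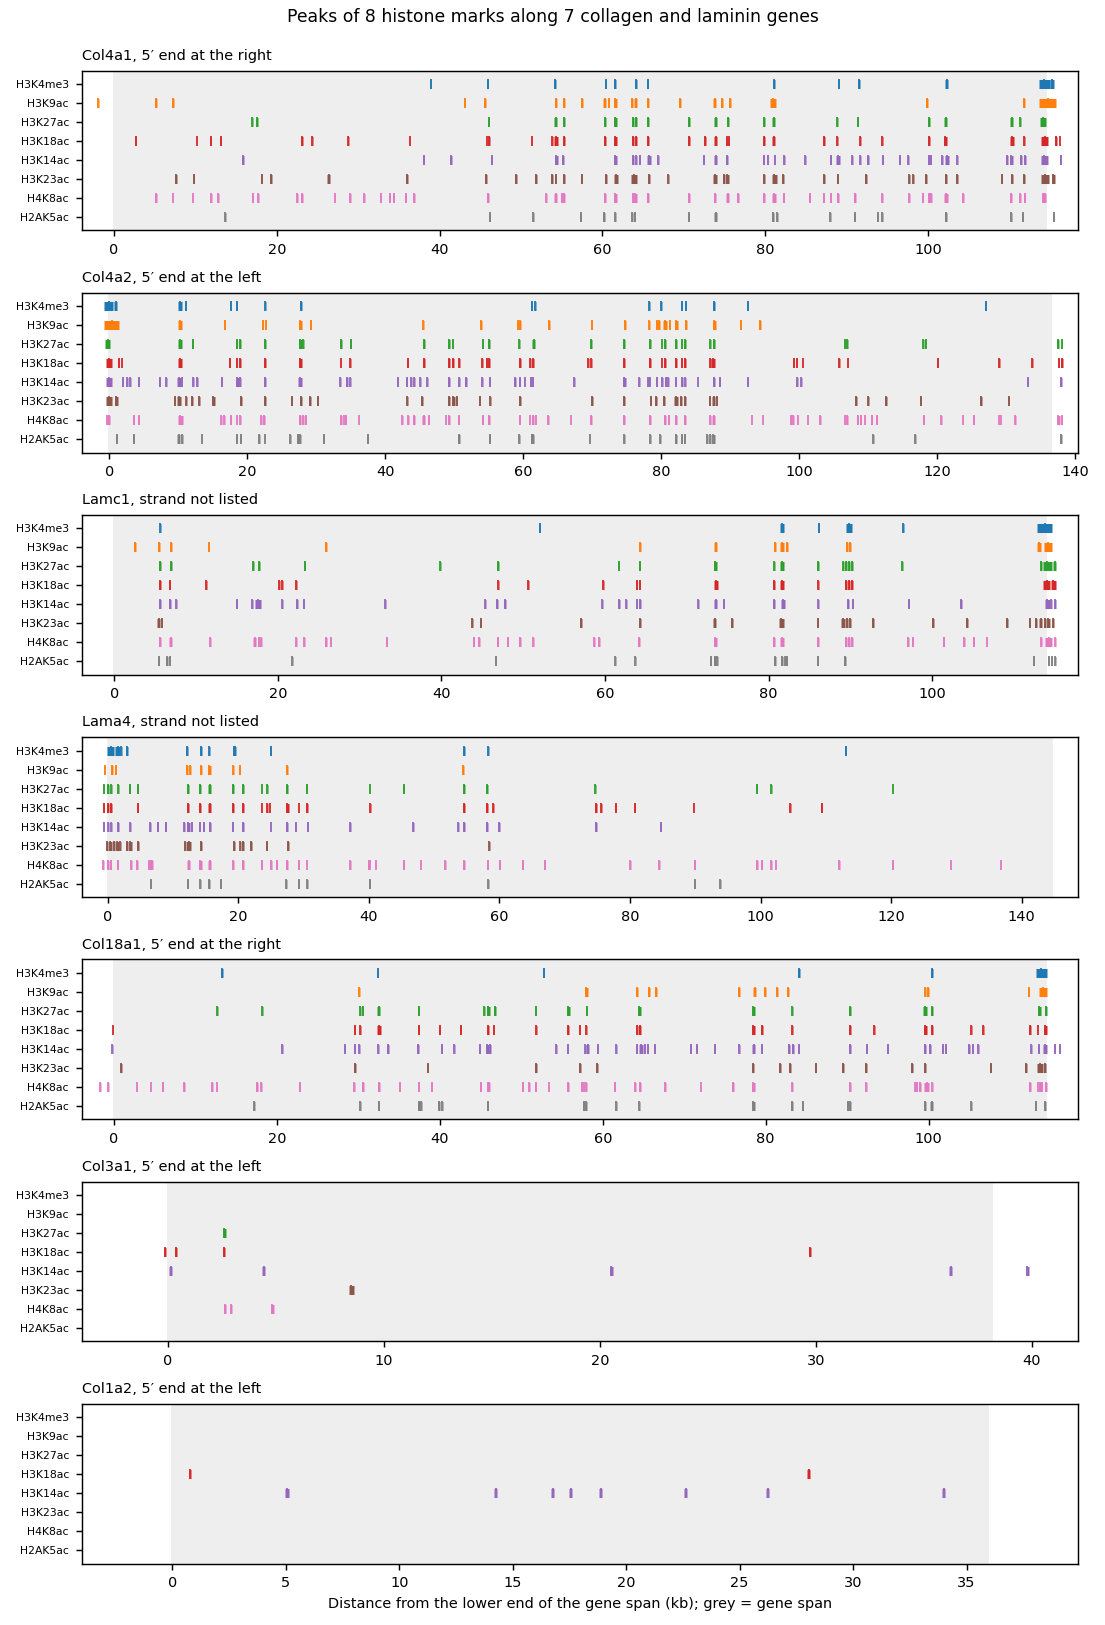
Peaks of the 8 marks (rows, 1 library each) along Col4a1, Col4a2, Lamc1, Lama4, Col18a1, Col3a1 and Col1a2, by distance in kb from the lower end of the gene span (grey); each tick is 1 peak, and wide peaks are drawn to scale. The first 5 genes show stacked ticks of many marks at 1 end and in the body, while Col3a1 has 14 peaks in all and Col1a2 has 10.

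The multiplexin genes, whose proteins join basement membranes to the matrix beneath, differed from each other. Col18a1, the source of endostatin, was covered at 1.78% by H3K4me3, 3.38% by H3K9ac, 4.29% by H3K27ac, 4.36% by H3K18ac, 7.32% by H3K14ac, 3.59% by H3K23ac, 6.59% by H4K8ac and 3.26% by H2AK5ac. A merged region of all 8 marks, 1350 bases long, lay over its start, at chr10:77165396-77166745. Col15a1 was covered at 0.467% by H3K4me3, 0.800% by H3K9ac, 1.86% by H3K27ac, 3.39% by H3K18ac, 6.63% by H3K14ac, 1.47% by H4K8ac and 1.28% by H2AK5ac, with H3K23ac at 0. At its start it had 104 bases of H3K18ac and no other mark. Its widest peaks of H3K4me3, H3K9ac, H3K14ac and H4K8ac all lay about 103 kb beyond the start, near the far end of the gene.

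Col8a1 and Col8a2, for the network collagen of vessel walls and the cornea, both had all 8 marks. Col8a2 was covered at 4.09% by H3K4me3, 3.60% by H3K9ac, 5.86% by H3K27ac, 6.31% by H3K18ac, 7.10% by H3K14ac, 5.38% by H3K23ac, 5.84% by H4K8ac and 4.26% by H2AK5ac, the last the highest of the 55. The widest peak of each mark lay in a region of all 8 marks, 1243 bases long, 14.7 kb from the listed start at chr4:126300879-126302121. Of the 22 merged regions in its window, 13 held 1 mark only. At the start itself there were 104 bases of H3K18ac and 129 of H2AK5ac. Col8a1 had 6 marks at its start, with 1195 bases of H3K4me3. Col10a1, of growth-plate cartilage, had 2 peaks of H3K14ac and 1 of H2AK5ac, and its whole window lies within 2 kb of Nt5dc1.

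Of the 11 fibrillar collagen genes, with a median span of 45.07 kb, 4 had all 8 marks (Col5a1, Col5a2, Col24a1 and Col27a1), or 36.4%, beside 44.6% of all genes. At the start 0 had all 8, beside 29.4%. Col1a2, for a chain of collagen I, had 2 peaks of H3K18ac (208 bases) and 8 of H3K14ac (1104 bases) and 0 of the other 6 marks. Col3a1, for collagen III, had 1 peak of H3K27ac, 4 of H3K18ac, 5 of H3K14ac, 1 of H3K23ac and 3 of H4K8ac, and 0 of H3K4me3, H3K9ac and H2AK5ac. Both genes lacked H3K4me3 over their whole windows. Col1a1, for the other chain of collagen I, was not like Col1a2: it had 7 marks, all 7 at its gene ends, with 528 bases of H3K4me3, 560 of H3K27ac and 0 of H3K9ac. Its coverage was 2.54% for H3K4me3, 3.55% for H3K27ac, 4.27% for H3K18ac and 3.27% for H3K14ac.

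Of the collagen V genes, whose product sets fibril width, Col5a1 and Col5a2 had all 8 marks. Col5a1 had 1041 bases of H3K4me3 at its start and 6 marks there, and its 1 region of all 8 marks lay 50.3 kb inside the gene. Col5a2 had 1564 bases of H3K4me3 at its ends, with 7 marks there, and 0 regions of all 8. H3K27ac covered 1.41% of Col5a1 and 0.851% of Col5a2, below the 1.86% median of all genes. These 2 genes span 153.1 and 129 kb, against a median of 17.17 kb for all genes, and coverage in genes as long is not given here. Col5a3 had 7 marks, with H3K4me3 at 0. Col27a1 had the highest coverage of the fibrillar genes for H3K27ac (3.74%), H3K18ac (4.82%) and H3K14ac (9.13%), and 979 bases of H3K4me3 at its start. Col24a1 had 3 marks at its start. Among the cartilage genes, Col2a1 had 7 marks with H3K4me3 at 0, Col11a1 had 2 (3 peaks of H3K4me3 and 12 of H3K14ac) and Col11a2 had 3 (1 peak of H3K4me3, 3 of H3K14ac and 1 of H4K8ac). The 3 H3K14ac regions of Col11a2 had identifiers of their own and held 0 reads of every library, H3K14ac included.

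Of the 9 genes for fibril-associated collagens, which sit on the surface of fibrils, 4 had all 8 marks, or 44.4%, near the 44.6% of all genes. Col16a1 had all 8 at its start, with 533 bases of H3K4me3, and its window was covered at 1.81% by H3K4me3, 0.736% by H3K9ac, 3.01% by H3K27ac, 2.19% by H3K18ac, 5.29% by H3K14ac, 1.55% by H3K23ac, 2.13% by H4K8ac and 0.465% by H2AK5ac. Col12a1, of tendon and stressed tissue, had 2 regions of all 8 marks, yet 0 bases of H3K4me3 at its ends. Col14a1 and Col22a1 also had all 8, Col22a1 with 170 peaks of H3K14ac over 355.2 kb. Col19a1 had 7 marks. The cartilage genes Col9a2 and Col9a3 had 6 each and Col9a1 had 2 (1 peak of H3K4me3 and 20 of H3K14ac). Col20a1 had 4, with 2 peaks of H3K4me3, 1 of H3K18ac, 9 of H3K14ac and 4 of H3K23ac.

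Collagen VI forms beaded filaments around cells, and none of its 6 genes had all 8 marks (44.6% of all genes). The number of marks was 4 in Col6a1, 6 in Col6a2, 7 in Col6a3, 5 in Col6a4, 7 in Col6a5 and 6 in Col6a6. At their starts 0 of 6 had H3K4me3 (60.8% of all genes), H3K9ac (49.5%), H3K27ac (61.4%) or H2AK5ac (36.4%). H3K14ac lay at the start of 6 of 6 (79.8% of all genes). The median coverage was 0.0378% for H3K27ac, against 1.86% for all genes, and 5.08% for H3K14ac, against 3.87%. The median span was 91.77 kb for the 6 genes and 17.17 kb for all genes, and coverage in genes of like length is not given here.

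Genes for transmembrane collagens, which are anchored in the cell surface, had all 8 marks in 4 of 4, with a median span of 217.6 kb (44.6% of all genes, and 74.2% of those of 113.9 kb or more). Col23a1 had 321 peaks over 294.2 kb, the most of the 55 genes, and 1062 bases of H3K4me3 at its start, but its region of all 8 marks lay past its far end, by Phykpl. Col13a1 had 7 marks at the start. Col25a1 had 3, and 129 of its 165 peaks were H3K14ac. Col17a1, of the epithelial hemidesmosome, had 0 marks at the start. Col7a1, for the anchoring fibrils beneath epithelium, had all 8 marks and 1 region of all 8, 24.7 kb from its start, and H3K9ac and H2AK5ac at 0 within 2 kb of the start. Col26a1 and Col28a1 also had all 8, with 4 and 1 at the start.

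Reads could be placed at 1360 regions of the H3K14ac list with an identifier of their own, in 35 of the 55 genes. In all they held 23314 reads of H3K14ac, or 2321 CPM (reads scaled to the library's total in the table; 95% Poisson interval 2291 to 2351). H3K27ac had 2752 reads or 1086 CPM (1046 to 1128), H3K18ac 892 or 577 CPM (540 to 616), H4K8ac 572 or 327 CPM (301 to 355) and H3K4me3 240 or 162 CPM (142 to 184). H3K23ac had 149 reads or 31.0 CPM (26.2 to 36.4), H3K9ac 71 or 43.6 CPM (34.1 to 55), H2AK5ac 59 or 14.04 CPM (10.7 to 18.1) and IgG 51 or 139 CPM (104 to 183). The intervals cover counting error only. These regions were called from H3K14ac, so the order of the libraries describes H3K14ac peaks and not the strength of each mark at the genes. They made up 0.343% of the bases of all such regions and held 0.350% of the H3K14ac reads there. Of the 1360 regions, 1109 held any H3K14ac reads.

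At Col4a1, 39 such regions held 402 reads of H3K14ac, 171 of H3K27ac, 151 of H4K8ac, 111 of H3K18ac, 82 of H3K23ac, 78 of H3K4me3, 58 of H3K9ac, 1 of H2AK5ac and 49 of IgG. The 49 IgG reads, or 134 CPM, were above each mark's CPM there and all fell in 1 region of 138 bases, at chr8:11244744-11244881 in the gene body, which held 5 reads of H3K14ac. At Col4a2, 55 regions held 779 reads of H3K14ac, 297 of H3K27ac, 238 of H4K8ac, 190 of H3K18ac, 50 of H3K4me3, 18 of H3K23ac, 14 of H2AK5ac, 6 of H3K9ac and 0 of IgG, which allows up to 8.20 CPM. At Col1a2, 8 regions held 154 reads of H3K14ac and 14 of H3K27ac and 0 of the other 7 libraries. Unshared bases, those in no region of another identifier, numbered 3098 in these regions of Col4a1, 3970 in Col4a2 and 1104 in Col1a2. How reads over shared bases were counted is not stated in the sources at hand. The counts are therefore not to be compared between genes or marks. IgG reads were found in 2 of the 1360 regions, the other with 2 reads at the lower end of Col24a1. For the shared identifiers the IgG level at these genes was not analysed here: 21 of the 4876 identifiers with a region in the windows held any IgG reads. CPM per kb of each list was estimated by a least-squares fit of each library's CPM on the lists' unshared bases, without negative values. For the H3K14ac list the fit gave 13.4 for the H3K14ac library and 6.00 for IgG. For the H3K27ac list it gave 44.2 for the H3K27ac library and 22.3 for IgG. These were the lowest ratios of the 8 lists to the next library. IgG had reads in only 903 of all identifiers, so its fitted values do not describe single peaks.

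Genes that act on collagen and laminin were set beside them from lists of matrix genes, also chosen with earlier results known. Of 18 genes for collagen folding and crosslinking, 14 had all 8 marks (44.6% of all genes). H3K27ac covered 8.23% of Serpinh1, which encodes the collagen chaperone HSP47, and 0% of Lox, a crosslinking oxidase with 4 marks. Of 12 further basement membrane genes, 11 had all 8. The perlecan gene Hspg2 had 7 regions of all 8 marks, as many as Col4a2, Sparc had 3 with H3K27ac over 8.32%, and Npnt, for nephronectin, had 5 marks. Of 15 receptor genes 11 had all 8 marks, among them Itga6 and Itgb1, integrin chains that bind laminin, and the fibrillar collagen receptor gene Ddr2 had 7 with 1 at the start. Procollagen processing genes had all 8 in 5 of 8, with 4 marks in Pcolce, the enhancer of the procollagen proteinase. Degradation genes had all 8 in 6 of 13, with 8 in Mmp14, a membrane collagenase, and 1 in Mmp13.

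**Figure D5:**
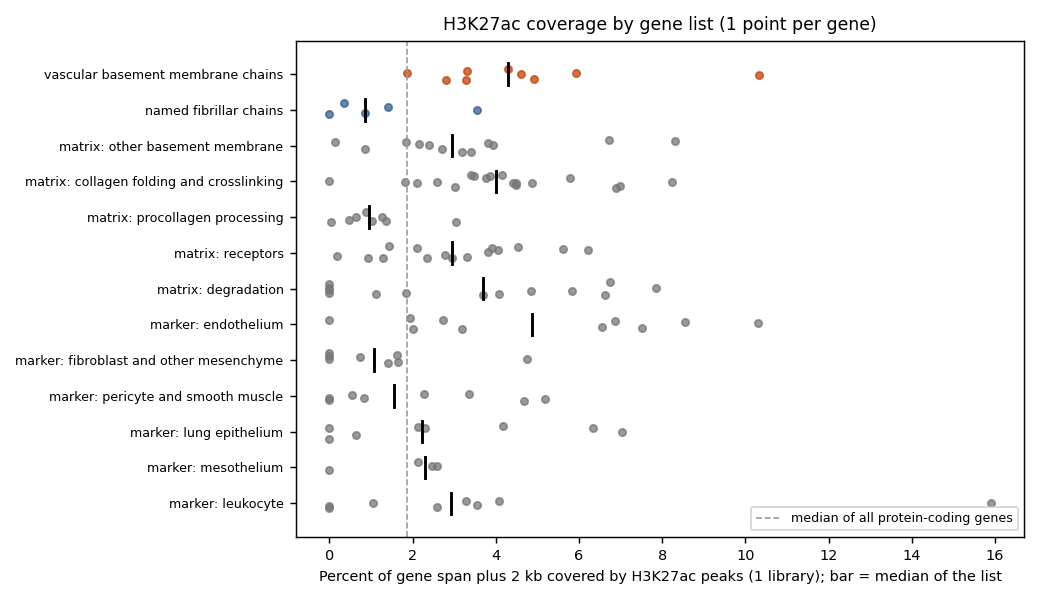
Percent of the gene span plus 2 kb covered by H3K27ac peaks (1 library) for the 9 vascular basement membrane chains (orange), 5 fibrillar chains of collagens I, III and V (blue), and the matrix and cell type marker lists (grey), with 1 point per gene and a bar at each list's median. The orange median is 4.29% and the blue 0.851%, and the dashed line marks the 1.86% median of all protein-coding genes. The median of all 11 fibrillar genes, not drawn, was 1.41%. The lists differ in gene length.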

How the data were processed

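ACT-seq libraries of 8 histone marks and IgG in lung endothelial cells (1 library each) were used. Per the file headers, the authors counted read pairs per peak region with featureCounts 2.0.6; the deposited values are raw counts, not normalized. Per the submitters' processing notes, Trim Galore, STAR, MACS2 and DESeq2 were used with the builds mm10 and GRCm38.p6; their settings are not stated in the sources at hand. Each identifier appears to join the region of that number from every peak list; no source states this. Lists were separated here by genome order and by each list's smallest width (0 rows broke the order; order alone puts 71.29% of shared regions in the same list). A list was named for the library densest in it by a least-squares fit. Separation was tested on simulated data. Peaks were counted with 1 base of overlap in the gene span plus 2 kb, or within 2 kb of listed starts (both gene ends where none is listed). CPM is scaled to each library's total in the table, with exact 95% Poisson intervals and a limit of 3 reads for a count of 0. No replicate existed, so no test was run.

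The members and gene lists were chosen with earlier results of these data known. Genes given in full were 9 vascular basement membrane chains, 5 fibrillar chains, the 5 highest and 5 lowest of the rest in coverage and those with under 3 marks; other members are given by counts, and matrix genes, markers and further members with single values were named after their values were seen. Col21a1 was not used here, and 1 member enters the counts but is not reported here. Alternatives covered the window, wider peaks, overlap, separation by order alone, neighbouring genes and the scaling of CPM. Python 3.11.15, numpy 2.4.6, pandas 2.3.3, scipy 1.17.1, numba 0.67.0 and matplotlib 3.10.9 were used.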

Additional observations from a re-analysis of the deposited data

How the results depend on the processing

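With 0 or 5 kb beside the gene in place of 2 kb, with 50% of a peak inside the window, and with only bases farther than 2 kb from other genes (added after seeing the data), each count of genes stayed within 1.5 times its value. Within 2 kb of the start fewer genes had a peak: 30 for H3K4me3, 16 for H3K9ac, 26 for H3K23ac, 28 for H4K8ac, 17 for H2AK5ac and 9 for all 8 marks. With peaks wider than each list's commonest width alone, the counts were 29 for H3K4me3, 20 for H3K9ac, 19 for H3K23ac, 30 for H2AK5ac and 16 for all 8, and the median percent covered was 0.1605 for H3K4me3, 0 for H3K9ac and H3K23ac, 0.918 for H3K18ac, 1.496 for H3K14ac, 0.5329 for H4K8ac and 0.1265 for H2AK5ac. With lists separated by order alone, which left 44194 H3K4me3 regions narrower than that list's commonest width, 21 genes had all 8 marks and the median was 0.3284 for H3K4me3 and 2.485 for H3K18ac. CPM over the reads in regions with an identifier of their own were 3499 for H3K14ac, 4856 for H3K18ac, 3750 for H3K27ac, 4849 for H4K8ac, 2542 for H3K4me3, 2988 for H3K23ac, 2360 for H3K9ac, 991.9 for H2AK5ac and 504.1 for IgG, since the divisor is smaller; IgG then fell below every mark. No paired analysis was possible because each mark has 1 library. No replicate could be left out. Peaks of the commonest width made up 20.01% (H3K27ac) to 80.9% (H3K14ac) of a list.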

Other observations

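Most merged regions at these genes held a peak of 1 mark only. Their share was lowest in Lama4, at 53.7% of 67 regions, and was 54.5% of 11 in Col1a1, 58.3% of 12 in Lamb2, 59.1% of 127 in Col4a2 and 61.2% of 98 in Col4a1. It was 100% in Col9a1, Col10a1, Col11a2, Col20a1 and Col1a2, and 94.7% of 151 in Col25a1. Col1a1 and Col1a2, whose chains form the same triple helix, thus stood near opposite ends, with 7 marks and 2. The same share over all protein-coding genes is not given here, so these values do not set collagen and laminin genes apart from other genes.

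Regions of all 8 marks within collagen and laminin genes were not limited to starts. In the genes with a listed start, they stood 6.27 kb from the start in Lamb1, 14.7 kb in Col8a2, 24.7 kb in Col7a1, 50.3 kb in Col5a1 and 87.6 kb in Col4a2.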
